A study of Mus musculus with 96 samples.

Results

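Markers of the cells other than hepatocytes were followed through 96 mouse liver RNA-seq libraries. The set was 40 genes, fixed by name from a list of markers: 11 of Kupffer cells, 11 of endothelial cells, 8 of stellate cells, 5 of cholangiocytes and 5 of lymphocytes. All 40 had counts, out of 55421 gene identifiers in the deposited table of which 35670 had any count, and all 40 passed the filter on low counts that kept 15772 genes. The libraries came from the livers of mice aged 12 to 16 weeks, of the genotypes Bmal1 KO, Bmal1 WT, Cry1/2_dKO and Cry1/2_WT. Each genotype was fed ad libitum (AL) or with food restricted to the night (RF), which gave 8 groups of 12 libraries, here called Bmal1 WT AL, Bmal1 KO AL, Bmal1 WT RF, Bmal1 KO RF, Cry WT AL, Cry KO AL, Cry WT RF and Cry KO RF. Each group held 2 libraries at each of 6 zeitgeber times (ZT) 4 h apart, and the library titles number them as 2 replicate series of 6. The labels do not say what a series number stands for, whether libraries of a series share an animal, a day or a cage, or in which tissues and from what age the genes were deleted. The p-values therefore measure only the spread between these libraries, which may be technical.

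Liver lobules are lined by sinusoids, whose fenestrated endothelial cells take up waste molecules from the blood. Kupffer cells, the resident macrophages, sit inside these vessels, stellate cells store vitamin A in the space beneath the endothelium, and cholangiocytes form the bile ducts. Hepatocytes make up most of the liver's mass and most of its RNA, so the transcripts of the other cells are a small part of a whole-liver library. In whole tissue, fewer cells of a type and less RNA per cell cannot be told apart. BMAL1 drives and CRY1 and CRY2 repress transcription through E-boxes (CACGTG) in the circadian clock.

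Promoter sequence is shown for 3 Kupffer members because these genes moved together across libraries (C1qb, a chain of complement C1q), reached the highest Kupffer level (Cd5l) or varied most against the others (Marco). The windows are the 250 bases before the RefSeq start on build GRCm38.p6, and 26 of the 40 members had an entry in the promoter table. GAGGAA, the core of the element bound by the macrophage factor PU.1, is in capitals on either strand (TTCCTC is its reverse complement). C1qb lies at chr4:136886201-136886450 on the minus strand, Cd5l at chr3:87357631-87357880 on the plus strand and Marco at chr1:120505025-120505274 on the minus strand.
C1qb: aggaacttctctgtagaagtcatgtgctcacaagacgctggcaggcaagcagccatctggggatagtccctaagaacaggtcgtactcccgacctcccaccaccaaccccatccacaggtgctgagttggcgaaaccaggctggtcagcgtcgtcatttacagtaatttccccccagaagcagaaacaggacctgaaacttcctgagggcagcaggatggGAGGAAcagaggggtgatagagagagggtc
Cd5l: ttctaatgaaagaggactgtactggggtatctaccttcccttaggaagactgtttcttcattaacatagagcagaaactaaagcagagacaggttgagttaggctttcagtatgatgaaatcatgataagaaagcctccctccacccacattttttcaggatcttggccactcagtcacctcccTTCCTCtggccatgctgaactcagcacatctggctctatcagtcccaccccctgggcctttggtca
Marco: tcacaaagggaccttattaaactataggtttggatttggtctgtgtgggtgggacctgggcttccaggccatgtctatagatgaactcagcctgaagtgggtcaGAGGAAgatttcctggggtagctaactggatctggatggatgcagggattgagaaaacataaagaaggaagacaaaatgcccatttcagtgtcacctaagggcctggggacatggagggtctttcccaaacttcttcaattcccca
The match began 30 bases before the start in C1qb, 66 in Cd5l and 146 in Marco. GAGGAA on either strand was in 5 of the 8 Kupffer members with an entry (C1qb, C1qc, Cd5l, Marco and Vsig4), in 5 of the other 18 members (Cd3e, Cd79a, Krt7, Spp1 and Stab1), and in 23.3% of all 32851 promoters of this length. The E-box CACGTG was in 1 of 26 members, Reln, and in 6.02% of all promoters. TTATGNAA, a D-box core bound by clock output factors, was in 0 of 26 members and in 3.07% of all promoters. The motifs do not overlap each other in the printed windows, and a match is a description of letters, not of a bound site.

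Levels are given in CPM, a gene's count scaled to the library's total with TMM factors. Per kb of exon, averaged over the wild-type libraries, the Kupffer members had a median of 19.46 CPM per kb, from 4.164 for Timd4 to 50.55 for Cd5l. Endothelial members had a median of 9.622 CPM per kb, from 3.562 for Lyve1 to 16.49 for Clec4g. Stellate members ran from 1.187 CPM per kb for Des to 45.46 for Ecm1, with a median of 4.194, and Ecm1 is also known from hepatocytes. Cholangiocyte members had a median of 0.7593 CPM per kb, from 0.1192 for Krt7 to 22.35 for Spp1. The lymphocyte members had the lowest median, 0.6177 CPM per kb, from 0.09606 for Cd3e to 0.9856 for Ccl5. The cholangiocyte members Krt7, Epcam and Krt19 lay within that range. Of all members, only lymphocyte ones had a count of 0 in any library: Ms4a1 in 2, Ccl5 in 1 and Nkg7 in 3 of 96. As a check on the tissue, the hepatocyte gene Alb had group medians between 20880 and 76970 CPM.

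Library totals ran from 1478963 to 35568856 counts with a median of 25422366. In the deleted lines the targeted genes were lower but not at 0: Arntl, the gene of BMAL1, had a median of 11.25 CPM in Bmal1 KO AL against 22.28 in Bmal1 WT AL, where it ranged from 0.2724 to 35.29 over the day. Cry1 had 7.865 CPM in Cry KO AL against 20.63 in Cry WT AL, and Cry2 had 24.82 against 37.1. These are counts over whole genes and do not show which exons were deleted. In 7 libraries single genes outside the member list stood apart, namely Saa1, the interferon-induced Isg15 or the pancreatic enzyme gene Ctrb1. They include series 6 of Cry WT RF at ZT12, with the acute-phase gene Saa1 at 21930 CPM, and series 5 of Cry KO RF at ZT4, with Ctrb1 at 251.6 CPM. Series 2 of Cry KO AL stood apart as a whole, and results without it are given below. Without the 7 libraries, the calls of Des and Nkg7 between genotypes in Bmal1 RF, Stab1 and Ptprb in Cry AL and Sox9 in Cry RF were lost. So was the call of C1qa between feeding regimens in Cry KO. Between the knockout effects of the lines, Epcam under AL and Des, Cd79a and Ccl5 under RF were lost. The 3 members nearest to a deleted gene were Stab2 at 1.66 Mb and Dcn at 12.29 Mb from Cry1, and Lyve1 at 2.34 Mb from Arntl. Ptprb and Oit3 lie further away on the chromosome of Cry1, and Cd79a and Nkg7 on that of Arntl. Another gene overlaps 15 members, and only Csf1r (Hmgxb3, 23.9% of the Csf1r counts) and Stab1 (Nt5dc2, 6.7%) had over 5% as many counts in it.

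Of all comparisons made, the one with the most members called lay between the 2 series of Cry KO AL, which share genotype, feeding and times. Endothelial and Kupffer markers were lower in series 2 than in series 1, and 2 bile duct markers were higher. All 11 endothelial members, 10 of 11 Kupffer members and 3 of 8 stellate members were called lower, and 2 of 5 cholangiocyte members were called higher, by the quasi-likelihood test of edgeR at a Benjamini-Hochberg adjusted p of 0.05. Over all genes tested in this comparison, 29.6% were called lower and 26.2% higher. The median log2 difference was −2.02 over the endothelial members and −1.26 over the Kupffer members, against −0.06 over all genes.

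**Figure D1:**
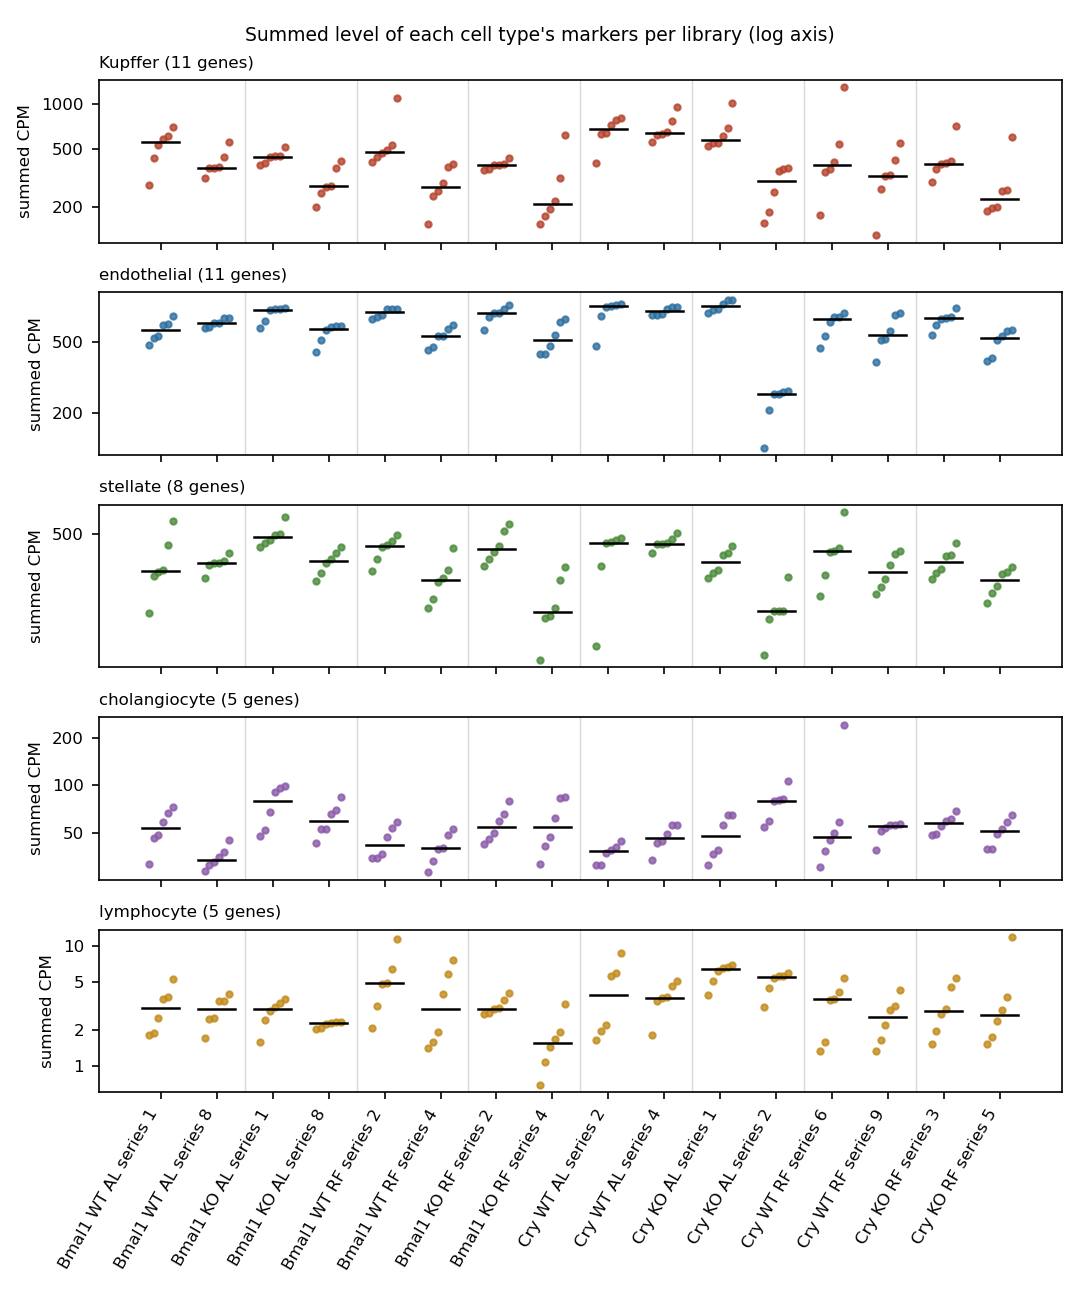
Each point is the summed CPM of the members of 1 cell type in 1 library (log axis), by group and numbered series, and black bars are medians of 6 libraries. The endothelial sum of series 2 of Cry KO AL lies between 128.3 and 266.5 CPM, below all other libraries, and 1 library of Cry WT RF series 6 is highest in the Kupffer, stellate and cholangiocyte sums. Spp1 alone holds 228.0 of the 244.1 CPM of that cholangiocyte sum.

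The summed endothelial level was 729.6 to 859.8 CPM in series 1 (median 790.6, 6 libraries) and 128.3 to 266.5 CPM in series 2 (median 255.6). The ranges did not overlap, and the 6 lowest endothelial sums of all 96 libraries were those of series 2. Ptprb, the endothelial tyrosine phosphatase that restrains TIE2 signalling and the endothelial member with the highest CPM, had 142.1 to 175.6 CPM (median 165.9) in series 1 and 14.89 to 36.21 (median 33.04) in series 2. Its log2 difference was −2.53 ± 0.15 (SE; adjusted p = 1.76e-18, edgeR). Kdr, the main VEGF receptor, fell from a median of 87.04 to 19.47 CPM (−2.29 ± 0.14, adjusted p = 1.93e-17, edgeR). The scavenger receptor gene Stab1 had 72.9 to 79.96 CPM in series 1 and 9.743 to 21.55 CPM in series 2 (−2.14 ± 0.14, adjusted p = 2.36e-17, edgeR). The other endothelial members ranged from −2.55 for Lyve1, a hyaluronan receptor, to −0.80 for Clec4g, a sinusoidal lectin. Between these lay Stab2, which clears hyaluronan (−2.02), the secreted protein gene Oit3 (−2.13), the nuclease gene Dnase1l3 (−1.84), the endocytic gene Ehd3 (−1.42), the inhibitory Fc receptor gene Fcgr2b (−1.41) and the junction protein gene Pecam1 (−1.32).

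The summed Kupffer level was 518.6 to 1022 CPM in series 1 (median 575.7) and 157.2 to 369.7 CPM in series 2 (median 302.5), again without overlap. Csf1r, the receptor for the growth factor on which macrophages depend, had 75.13 to 146.9 CPM in series 1 and 13.97 to 29.37 CPM in series 2 (−2.17 ± 0.32, adjusted p = 1.25e-07, edgeR). Adgre1, the F4/80 antigen, had medians of 32.39 and 8.061 CPM (−2.26 ± 0.34, adjusted p = 2.19e-07, edgeR), and Cd163, the haemoglobin scavenger receptor, 25.72 and 6.156 CPM (−2.07 ± 0.37, adjusted p = 6.48e-06, edgeR). Smaller differences were called for Timd4, a receptor for dying cells (−1.74), the complement receptor gene Vsig4 (−1.64), Cd5l, a secreted scavenger protein (−1.26), the lectin gene Clec4f (−1.17), and the C1q chains C1qc (−0.91), C1qb (−0.70) and C1qa (−0.62). Marco, a scavenger receptor for bacteria and particles, was the one Kupffer member not called (−0.60, adjusted p = 0.453, edgeR).

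Across all 96 libraries C1qb stood at 0.85 to 1.34 times C1qa (median 1.05) and C1qc at 0.812 to 1.68 times C1qa (median 1.09) in counts within a library. Csf1r was 1.62 to 2.13 times C1qa in series 1 of Cry KO AL and 0.55 to 0.732 times C1qa in series 2, without overlap. Cd163 was 0.377 to 0.686 times C1qa in series 1 and 0.113 to 0.259 in series 2. C1qc also moved against C1qa, from 1.07 to 1.2 times in series 1 to 0.812 to 1.01 times in series 2, while the ranges of C1qb against C1qa overlapped. Marco was 0.0286 to 2.47 times C1qa over all libraries (median 0.219), the widest of the ratios to C1qa computed here.

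Among the stellate members, Lrat, which esterifies retinol for storage, was lower in series 2 (19.58 to 28.98 against 5.719 to 12.38 CPM; −1.43 ± 0.22, adjusted p = 4.77e-07, edgeR). Reln, the secreted glycoprotein reelin, was also lower (63.17 to 86.0 against 20.85 to 33.65 CPM; −1.44 ± 0.15, adjusted p = 3.14e-11, edgeR), and Dcn, the collagen-binding proteoglycan decorin, less so (123.4 to 145.5 against 62.75 to 120.9 CPM; −0.53 ± 0.13, adjusted p = 0.000507, edgeR). In these 3 genes the series did not overlap, and the share of all genes without overlap is not given. The collagens Col1a1 and Col3a1, the muscle filament gene Des, Ecm1 and the collectin gene Colec11 were not called. Krt7, a bile duct keratin, was higher in series 2 (0.323 to 1.127 against 1.547 to 2.516 CPM; 1.44 ± 0.30, adjusted p = 7.99e-05, edgeR), as was Spp1, osteopontin, with medians of 38.74 and 67.81 CPM (0.75 ± 0.30, adjusted p = 0.0312, edgeR). Epcam, Krt19 and Sox9 were not called, nor were the 5 lymphocyte members, whose differences lay between −0.499 and −0.005.

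Of 103 other marker genes listed by cell type, 99 were tested, and in the same comparison 36 were called lower and 13 higher. Lower were 10 of 12 further Kupffer markers, 14 of 18 endothelial, 7 of 12 stellate, 3 of 8 monocyte and dendritic, 1 of 4 dividing-cell and 1 of 10 hepatocyte markers. Higher were 7 of 10 hepatocyte, 3 of 3 mesothelial, 2 of 6 erythroid and 1 of 12 stellate markers.

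**Figure D2:**
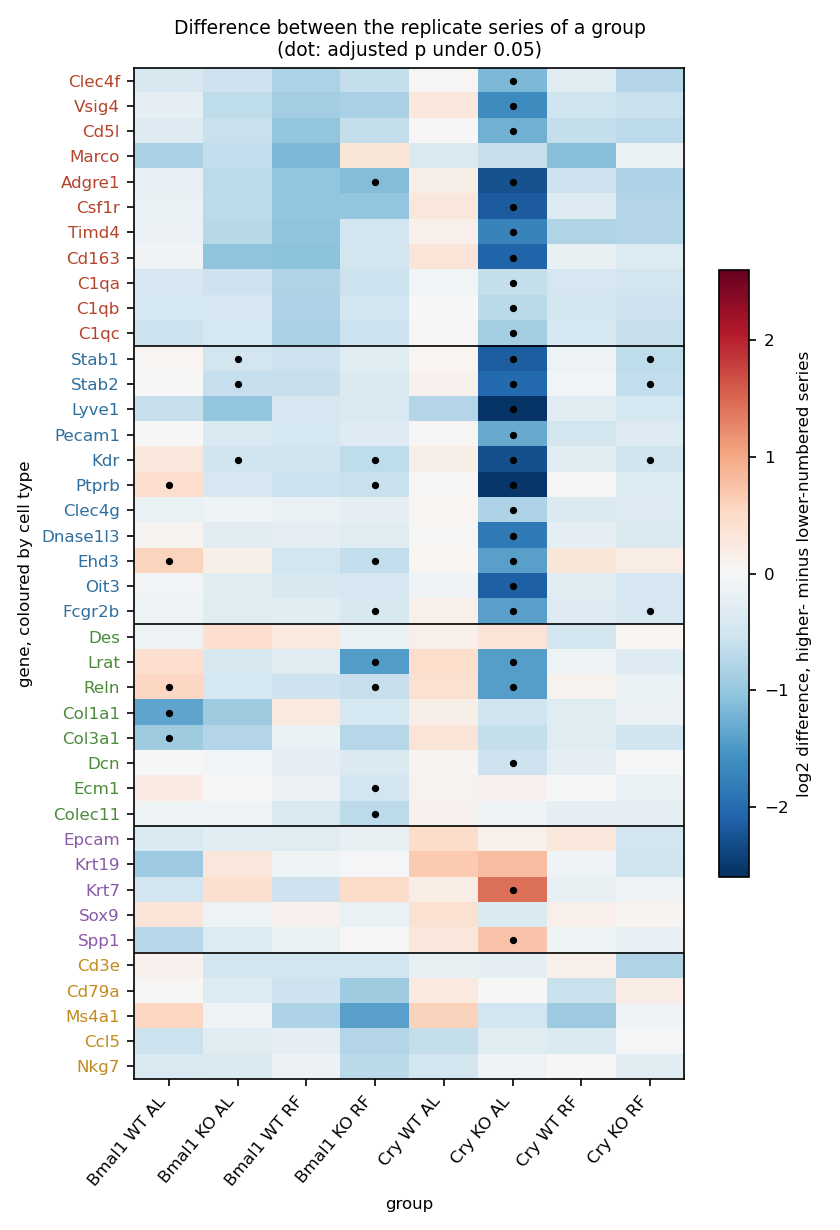
Colours give the log2 difference between the higher- and lower-numbered series for each of the 40 members (rows, gene names coloured by cell type) in each of the 8 groups (columns), and dots mark adjusted p under 0.05. Cry KO AL holds 26 of the dots, and the Kupffer rows are blue in most columns.

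Other measures separated the same series. The share of counts from mitochondrial genes had a median of 6.68% in series 1 and 10.3% in series 2 of Cry KO AL (7.79% to 12.4% over its libraries), and the median number of genes detected was 21703 and 19038. Longer genes were lower in series 2: across 15755 genes, the series difference had a Pearson correlation of −0.29 with log2 exon length, given as a description over genes that share libraries. In the other 7 groups this correlation lay between −0.12 and 0.18. The median over all genes ran from 0.53 for genes of up to 1 kb of exon to −0.55 for genes over 8 kb, while the members' medians in the same length classes were −0.22, −0.60, −1.22, −1.32 and −2.08. The members' medians lay below those of all genes in each class, while single members such as Krt7 lay above. The part of these measures in the marker differences was not tested.

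**Figure D3:**
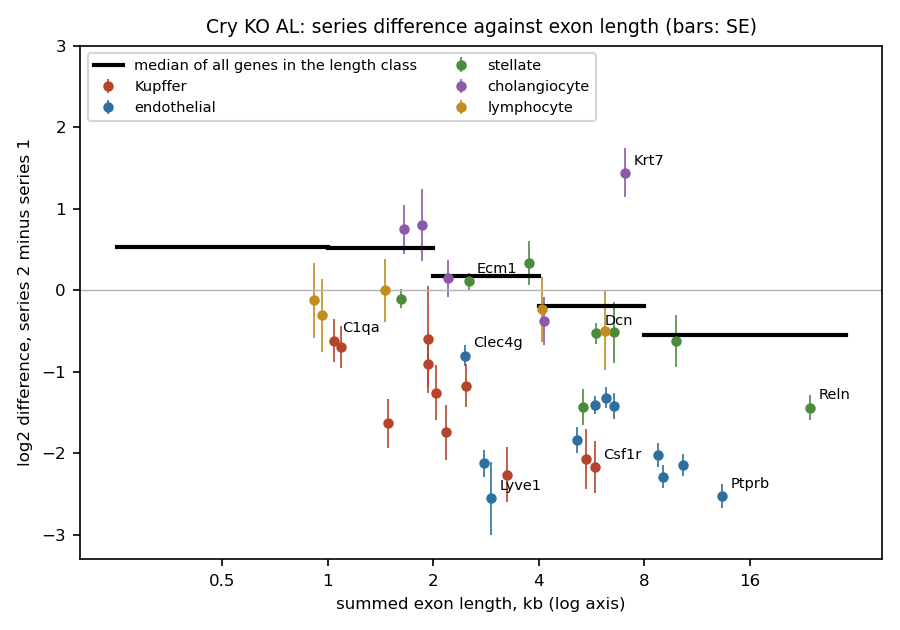
The log2 difference between series 2 and series 1 of Cry KO AL (y axis, bars are SE) is plotted for each member against its summed exon length in kb (log axis), and black lines are medians of all genes in 5 length classes. The called endothelial and Kupffer members lie below 0, and Krt7 (1.44) lies above the line of its class.

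Smaller series differences appeared in other groups. In Bmal1 KO RF 9 members were lower in series 4 than in series 2 (1.36% of all genes lower, 1.1% higher): Lrat fell most (24.03 to 43.83 against 5.138 to 19.91 CPM; −1.45 ± 0.22, adjusted p = 2.83e-05, edgeR), followed in size by Adgre1 (−1.12), Colec11 (−0.68), Kdr (−0.66), Ehd3 (−0.64), Reln (−0.61), Ptprb (−0.57), Ecm1 (−0.51) and Fcgr2b (−0.41). In Bmal1 WT AL Ehd3, Reln and Ptprb were higher in series 8 (0.58, 0.53 and 0.44) and the fibrillar collagens Col1a1 (−1.37) and Col3a1 (−0.93) were lower (7.51% of all genes higher, 2.95% lower). Col1a1 ranged from 5.713 to 33.63 CPM in series 1 of that group and from 5.012 to 7.273 CPM in series 8. Stab1, Stab2 and Kdr were lower in the higher-numbered series of both Bmal1 KO AL (3 members called, 1.24% of all genes in either direction) and Cry KO RF (4 members with Fcgr2b, 0.837%). No member was called in Bmal1 WT RF, Cry WT AL or Cry WT RF by edgeR, where 0.139%, 0.938% and 0.361% of all genes were called.

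Signs over a cell type are given without a test. In 6 of 8 groups all 11 Kupffer members were negative (lower in the higher-numbered series), with Kupffer calls in Cry KO AL and Bmal1 KO RF alone, and their median difference was negative in 7 of 8 groups, between −1.26 and 0.04. In Bmal1 WT RF, with no member called, this median was −1.03, and 62 of 66 comparisons of a Kupffer member at one time were lower in series 4. The medians of the stellate and lymphocyte members were also negative in 7 of 8 groups, and those of the endothelial and cholangiocyte members in 6. All 11 endothelial members were negative in 3 of 8 groups and all 5 lymphocyte members in 4. The numbers carry no stated order, and the direction is given as a description.

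Between genotypes, Sox9 had the smallest adjusted p of the members in both lines under AL. Sox9 encodes a transcription factor of bile duct and progenitor cells that periportal hepatocytes are also known to express. It was higher in Bmal1 KO than in Bmal1 WT and lower in Cry KO than in Cry WT. Under AL it had 2.325, 6.25 and 11.18 CPM (lowest, median and highest of 12 libraries) in Bmal1 WT and 9.402, 13.82 and 21.58 CPM in Bmal1 KO. In 8 of 12 knockout libraries it was above the highest wild-type library, and its mean was higher at 6 of 6 times (log2 fold change 1.26 ± 0.18, adjusted p = 2.11e-07, edgeR). In the Cry line under AL it had 2.881, 9.795 and 14.97 CPM in the wild type and 1.372, 3.289 and 5.673 CPM in the knockout. There 5 of 12 knockout libraries were below the lowest wild-type library and the mean was lower at 6 of 6 times (−1.17 ± 0.19, adjusted p = 4.2e-06, edgeR).

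Under RF both differences of Sox9 were smaller. Bmal1 WT RF had 2.81, 8.226 and 17.29 CPM and Bmal1 KO RF 6.826, 11.47 and 17.79 CPM (0.62 ± 0.18, adjusted p = 0.0084, edgeR), with overlapping groups. Cry WT RF had 2.519, 8.382 and 11.45 CPM and Cry KO RF 2.548, 4.954 and 6.886 CPM (−0.67 ± 0.19, adjusted p = 0.0226, edgeR). The difference of the knockout effect between RF and AL was not called for any member in either line by edgeR, where 0.0% and 6.33% of all genes were called. Sox9 did not differ between the series of any group (adjusted p of 0.271 or more, edgeR), and under AL it was called in each alternative run, including a limma-voom fit in which each series was a random effect (adjusted p = 0.00172 in the Bmal1 line and 0.0234 in the Cry line). Under RF that fit gave adjusted p = 0.134 and 1.0. Sox9 under RF was also not called in the Bmal1 line without series 2 of either genotype. In the Cry line it was called in 6 of 14 alternatives, and not when any of the 4 series or the libraries that stood apart were left out.

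**Figure D4:**
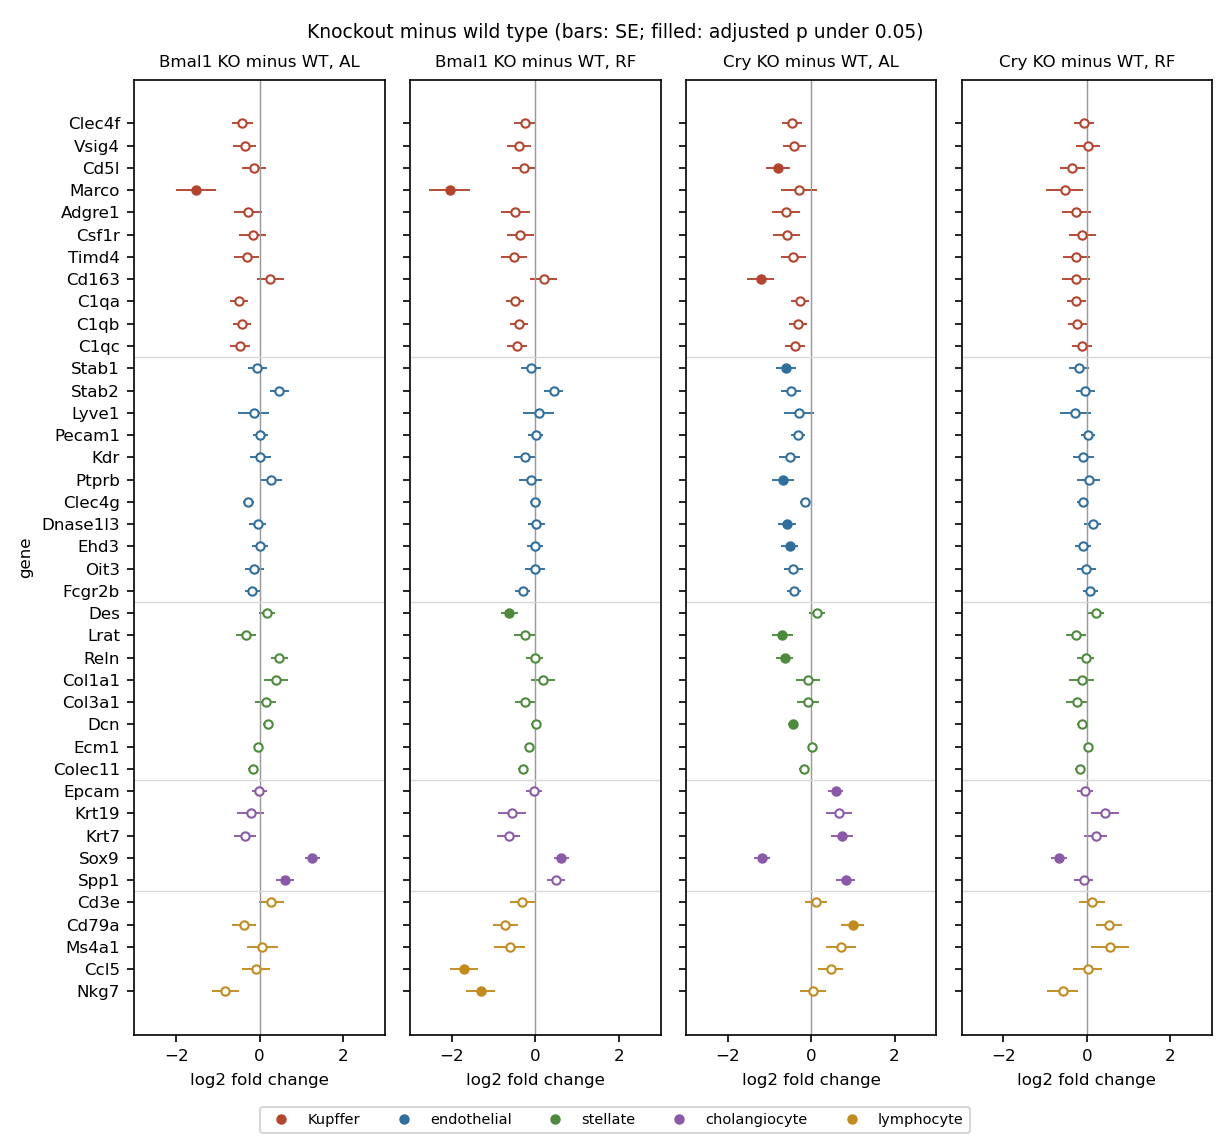
Points are the log2 fold change of each member between knockout and wild type, averaged over 6 times, in 4 comparisons (panels), with SE as bars and filled points where adjusted p is under 0.05. Sox9 lies to the right in the Bmal1 line and to the left in the Cry line, and Marco lies to the left in the Bmal1 line.

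In the Bmal1 line under AL, 2 members rose and 1 fell (13.7% of all genes rose, 10.7% fell). Besides Sox9, Spp1 rose: it had 23.06, 27.89 and 58.57 CPM in the wild type and 31.34, 51.16 and 81.86 CPM in the knockout (0.60 ± 0.22, adjusted p = 0.0392, edgeR), and 3 of 12 knockout libraries were above all wild-type ones. Without series 8 of the wild type the Spp1 difference was 0.28 (adjusted p = 0.485, edgeR), and without series 1 of the knockout 0.37 (0.381). Marco fell, from 1.661, 6.411 and 39.51 CPM to 0.814, 2.089 and 22.04 CPM (−1.53 ± 0.47, adjusted p = 0.0131, edgeR). It was lower at 5 of 6 times, and 1 knockout library, series 8 at ZT16, held the 22.04 CPM. Without series 1 of the wild type it was −0.94 (adjusted p = 0.319, edgeR), and it was also not called without series 8 of the knockout (−1.45). The other 10 Kupffer members were not called; 10 of all 11 had a negative fold change, and the median was −0.36 against 0.02 over all genes.

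In the Bmal1 line under RF, 1 member rose and 4 fell (10.5% of all genes rose, 10% fell). Marco fell from 1.443, 6.704 and 160.0 CPM to 0.625, 1.861 and 37.56 CPM (−2.05 ± 0.49, adjusted p = 0.00135, edgeR), and the groups overlapped. Series 2 of the wild type held the 160.0 CPM library, at ZT12, and without that series the difference was −0.90 (adjusted p = 0.39, edgeR). With the series as a random effect, Marco had adjusted p = 0.502 under AL and 0.295 under RF (limma). Des fell from 2.982, 4.166 and 20.07 CPM to 2.0, 3.234 and 4.254 CPM (−0.62 ± 0.19, adjusted p = 0.0156, edgeR), but it was not called without the libraries that stood apart (−0.59), without series 4 of the wild type (−0.41) or without series 4 of the knockout (−0.52).

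The lymphocyte members were lower in Bmal1 KO RF than in Bmal1 WT RF, 5 of 5 in sign with a median of −0.72 and 2 of them called. Ccl5, a chemokine of T and NK cells, had 0.2535, 1.045 and 3.873 CPM in the wild type and 0, 0.4189 and 0.9875 CPM in the knockout (−1.71 ± 0.34, adjusted p = 0.000108, edgeR). It was lower at 6 of 6 times and was called without each series in turn, though not with the series as a random effect (adjusted p = 0.103, limma). Nkg7, a protein of cytotoxic granules, had 0, 0.4333 and 1.054 CPM against 0, 0.178 and 0.5416 CPM (−1.31 ± 0.36, adjusted p = 0.00481, edgeR). Without series 2 of the wild type the Nkg7 difference was 0.02 (adjusted p = 0.927, edgeR), and without series 4 of the knockout −0.91 (0.2). Cd3e, the T cell receptor chain, and the B cell genes Cd79a and Ms4a1 were not called. Of 12 other lymphocyte markers 6 were lower, led by Ighm (−1.84) and Il2rb (−0.92).

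The other marker lists in the Bmal1 line moved in both directions. Of 99 tested, 5 rose and 11 fell under AL and 5 rose and 19 fell under RF. Among Kupffer-cell and monocyte genes, Mpeg1 (1.35 under AL, 1.01 under RF) and Cx3cr1 (2.27 and 2.07) rose while Slc40a1 fell (−0.64 and −0.57). Most of these lists went the other way from the 2 that rose. Of 12 other Kupffer markers 11 were negative in sign under AL (median −0.34) and 10 under RF (−0.47). Of 8 monocyte and dendritic markers 6 were negative under each regimen, and 2 were called lower under RF. Of the cholangiocyte list Krt23 (−1.29 and −1.24) and Cdh1 (−0.54 and −0.59) fell, in the opposite direction to Sox9. The hepatocyte gene Alb fell by 1.77 and 1.27 on the log2 scale, the lowest of 10 hepatocyte markers. Of these 10, 4 were positive and 6 negative in sign under AL (median −0.2), and 5 and 5 under RF (median 0.06).

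In the Cry line under AL, 10 members fell and 4 rose (19.7% of all genes rose, 13.3% fell). Endothelial, Kupffer and stellate members and the bile duct member Sox9 fell, and 3 other bile duct members and 1 B cell member rose. Of these 14 members, 1 was called without series 2 of Cry KO AL, Sox9 (−1.06, adjusted p = 0.000778, edgeR), and 29 members were called without series 1. Leaving out either wild-type series of this comparison, 2 or 4, gave 5 members. With the series as a random effect 5 members were called: Cd163, Stab1, Ptprb, Dnase1l3 and Sox9. The shares of all genes above are of the run with all libraries, and those of these alternative runs are not given.

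Cd163 had 16.73, 41.55 and 54.21 CPM in Cry WT AL and 3.368, 14.43 and 42.14 CPM in Cry KO AL (−1.21 ± 0.32, adjusted p = 0.00305, edgeR). It was lower at 6 of 6 times, 6 of 12 knockout libraries were below all wild-type ones, and without series 2 its difference was −0.60 (adjusted p = 0.364, edgeR). Cd5l had 97.63, 141.3 and 215.2 CPM against 29.31, 81.62 and 237.2 CPM (−0.79 ± 0.29, adjusted p = 0.0298, edgeR), and −0.34 without series 2 (0.706). Among endothelial members Dnase1l3, Ehd3, Stab1 and Ptprb fell by 0.58, 0.52, 0.60 and 0.67 on the log2 scale. Ptprb had 95.35, 156.5 and 173.0 CPM in the wild type and 14.89, 89.17 and 175.6 CPM in the knockout (adjusted p = 0.046, edgeR), and Stab1 50.02, 74.43 and 79.22 against 9.743, 47.23 and 79.96 CPM (0.0442). Dnase1l3 had 55.86, 77.28 and 84.0 against 9.137, 48.97 and 92.39 CPM (0.0258), and Ehd3 had 51.46, 90.08 and 109.3 against 18.38, 57.9 and 105.4 CPM (0.0359). The highest knockout library was above the highest wild-type library in 3 of these 4 genes, and without series 2 their differences were between 0.006 and 0.087.

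Of the stellate members Dcn fell from 89.18, 151.6 and 210.2 to 62.75, 122.1 and 145.5 CPM (−0.44 ± 0.11, adjusted p = 0.00203, edgeR). Reln fell from 32.1, 87.36 and 100.5 to 20.85, 48.41 and 86.0 CPM (−0.63 ± 0.20, adjusted p = 0.0125, edgeR), and Lrat from 12.56, 31.36 and 38.94 to 5.719, 15.98 and 28.98 CPM (−0.69 ± 0.25, adjusted p = 0.0273, edgeR). Without series 2 these were −0.20, −0.10 and −0.19, none called.

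Spp1 rose from 20.69, 30.04 and 40.68 CPM to 24.87, 53.35 and 93.72 CPM (0.83 ± 0.22, adjusted p = 0.00343, edgeR), with 9 of 12 knockout libraries above all wild-type ones, and was 0.38 without series 2 (0.51). Epcam, an adhesion molecule of bile duct epithelium, rose from 0.8417, 1.392 and 1.656 CPM to 1.262, 2.027 and 3.374 CPM (0.60 ± 0.18, adjusted p = 0.0083, edgeR), and was 0.52 without series 2 (0.177). Krt7 rose from 0.3694, 0.7858 and 1.22 to 0.323, 1.337 and 2.516 CPM (0.74 ± 0.26, adjusted p = 0.0223, edgeR), and was −0.11 without series 2. Cd79a, a B cell receptor chain, rose from 0.2455, 0.971 and 2.205 CPM to 0.4746, 1.681 and 3.221 CPM (0.99 ± 0.28, adjusted p = 0.00537, edgeR). Its difference was 0.97 without series 2 and 0.83 without series 1 (called in neither), and all 5 lymphocyte members were positive in sign. The 12 other lymphocyte markers split into 6 positive and 6 negative, with a median of −0.03, the same as over all genes.

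The other markers in the Cry line under AL showed 9 rises and 12 falls among 99, and 2 rises (Krt23 and Vwf) and 0 falls among 101 without series 2 of Cry KO AL. Mpeg1 (−1.30) and Ctss (−0.71) fell, Krt23 (1.76) and Cdh1 (0.42) rose, and the hepatocyte genes Pck1 (1.34) and Serpina1a (0.57) rose. Without that series Krt23 was 1.48, Mpeg1 −0.90, Ctss −0.36, Cdh1 0.55, Pck1 0.68 and Serpina1a −0.06. Under RF, Sox9 was the one member called between Cry KO and Cry WT (3.28% of all genes rose, 3.02% fell). There the medians were −0.25 over the Kupffer members, 10 of 11 negative, and −0.03 over the endothelial members, against −0.03 over all genes. Of the other markers 3 rose and 3 fell, with the pancreatic genes Ctrb1 (8.83) and Cela2a (3.38) among the rises. Without the libraries that stood apart Ctrb1 did not pass the filter, Cela2a was not called (2.11), and Ighm was the one call (1.06).

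The knockout effects of the lines were compared directly, with no library shared. Under AL 9 members differed (40.8% of all genes), and Sox9 most: its knockout effect was lower in the Cry line than in the Bmal1 line by −2.43 ± 0.26 (adjusted p = 9.2e-11, edgeR). Without series 2 of Cry KO AL this was −2.32 (adjusted p = 6.61e-09, edgeR), and with the series as a random effect adjusted p was 6.48e-05 (limma). Dcn (−0.64 ± 0.16, adjusted p = 0.00104, edgeR) and Reln (−1.10 ± 0.28, 0.0016) followed. Without series 2 of Cry KO AL, 7 of these 9 members were not called, and Sox9 and Cd79a were. With the series as a random effect Stab2, Ptprb, Reln, Dcn and Sox9 were called, and Cd79a was not (adjusted p = 0.0896, limma). Cd163, Stab2 and Ptprb also differed downward, and Cd79a, Krt7 and Epcam upward. Under RF 4 members differed (15.2% of all genes): Sox9 (−1.29 ± 0.26, adjusted p = 0.000212, edgeR), Ccl5 (1.73), Cd79a (1.25) and Des (0.84), and none of the 4 was called with the series as a random effect. Stab2 under AL was 50.49, 68.38 and 79.72 CPM in Bmal1 WT and 51.61, 91.08 and 135.9 CPM in Bmal1 KO, where 10 of 12 libraries were above all wild-type ones, a difference not called in the fit over all groups (0.47).

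With all libraries, feeding moved 0 to 2 members in each genotype. Night-restricted feeding raised Ccl5 in Bmal1 WT, from 0.2461, 0.5054 and 1.594 CPM to 0.2535, 1.045 and 3.873 CPM (1.22 ± 0.32, adjusted p = 0.00915, edgeR; 9.33% of all genes rose, 6.37% fell). It raised Epcam in Cry WT, from 0.8417, 1.392 and 1.656 CPM to 0.936, 2.001 and 3.227 CPM (0.67 ± 0.17, adjusted p = 0.0294, edgeR; 0.647% rose, 0.938% fell). In Cry KO, C1qa had 19.08, 43.76 and 72.13 CPM under AL and 16.78, 26.77 and 47.26 CPM under RF (−0.61 ± 0.23, adjusted p = 0.0483, edgeR). Ccl5 in Cry KO went from 0.4989, 1.218 and 2.261 CPM to 0.2768, 0.6879 and 1.654 CPM (−0.97 ± 0.33, adjusted p = 0.0359, edgeR; 5.07% of all genes rose, 13.1% fell). No member was called in Bmal1 KO by edgeR (0.514% of all genes rose, 0.0317% fell). None of these 4 calls held without each series in turn or with the series as a random effect.

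The Kupffer members had negative values under RF in 11 of 11 cases in Cry WT, with a median of −0.76 against 0.0 over all genes. None of them was called, but 9 were called lower without the libraries that stood apart, 7 by limma-voom and 3 with the compared groups alone. With no filter 10 were called lower, without series 6 of Cry WT RF 5, and by DESeq2 1. None was called with the series as a random effect, with RLE factors or library totals, or with a minimum mean of 1 CPM. The same held without the 3 shallowest libraries, either series of Cry WT AL, or series 9 of Cry WT RF. In Cry KO 11 of 11 were negative with a median of −0.46, and the sign depended on which series of Cry KO AL was used. Without series 1, which left series 2 with its lower Kupffer levels, 2 of 11 were negative and the median was 0.41. Vsig4, Adgre1, Csf1r and Cd163 were then called higher under RF. Without series 2 instead, all 11 were negative with a median of −0.86, and Adgre1 and Timd4 were called lower. For the alternative runs of this paragraph the share of all genes called is not given, so these counts cannot be set against it.

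The wild types of the lines differed under AL in Cd163, Sox9 and Cd3e, all higher in Cry WT (11.1% of all genes higher, 9.42% lower). Cd163 had a median of 16.8 CPM in Bmal1 WT AL and 41.55 CPM in Cry WT AL (1.18 ± 0.32, adjusted p = 0.0076, edgeR), Sox9 6.25 and 9.795 CPM (0.50 ± 0.18, 0.0409) and Cd3e 0.2373 and 0.4729 CPM (0.76 ± 0.28, 0.0459). None of the 3 was called with the series as a random effect (adjusted p = 0.123, 0.36 and 0.391, limma) or without series 1 of Bmal1 WT AL, and Cd3e was called in 3 of 12 alternatives. The lines and anything else that differed between their wild types cannot be told apart. Under RF no member was called by edgeR, with 0.856% of all genes called.

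Over the day, Sox9 followed a 24 h cosine in 3 wild-type groups when both series were used. A rhythm was called at adjusted p under 0.05 with a fitted range from trough to peak of at least 0.5 log2, and Sox9 was the one member called in Bmal1 WT AL and in Bmal1 WT RF. In Bmal1 WT AL the 2 libraries at ZT12 had 2.361 and 2.325 CPM and those at ZT0 had 8.554 and 11.18 CPM. In Bmal1 WT RF those at ZT12 had 3.421 and 2.81 CPM and those at ZT0 11.52 and 17.29 CPM. The fitted ranges were 1.74 and 1.71 log2 with peaks at ZT23.5 and ZT23.7 (adjusted p = 0.00367 and 0.00228, edgeR), among 9.97% and 12.8% of all genes rhythmic. With 1 series left out, 6 libraries remained in the group: in Bmal1 WT AL the range was 1.73 or 1.78 (adjusted p = 0.1 and 0.162, edgeR), and in Bmal1 WT RF 2.06 without series 2 (0.0364) and 1.31 without series 4 (0.344). In Cry WT AL the range was 1.68 with a peak at ZT22.6 (adjusted p = 0.00451, edgeR), among 6.67% of all genes rhythmic. It was 1.42 (0.105) without the libraries of all groups that stood apart, 2 of them in Cry WT AL. It was not called without series 2 or without series 4 of Cry WT AL either (1.53 and 1.85).

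In Cry WT RF Sox9 had 10.26 CPM in the series 6 library at ZT12 and 2.519 CPM in the series 9 library. Its range was 0.88 log2 there and was not called (adjusted p = 0.176, edgeR). Without the libraries of all groups that stood apart it was 1.45 with a peak at ZT22.7 (0.0267). In Cry WT RF the series 6 library at ZT12 was the only one of these. No member was called rhythmic in the 4 knockout groups by edgeR, in which 0.0317% of all genes were called in Bmal1 KO AL, 5.26% in Bmal1 KO RF, 0.0% in Cry KO AL and 6.63% in Cry KO RF. The fitted Sox9 ranges in these groups were 0.02, 0.94, 0.42 and 1.12 log2. Whether the rhythm of Sox9 differed between genotypes was not tested.

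**Figure D5:**
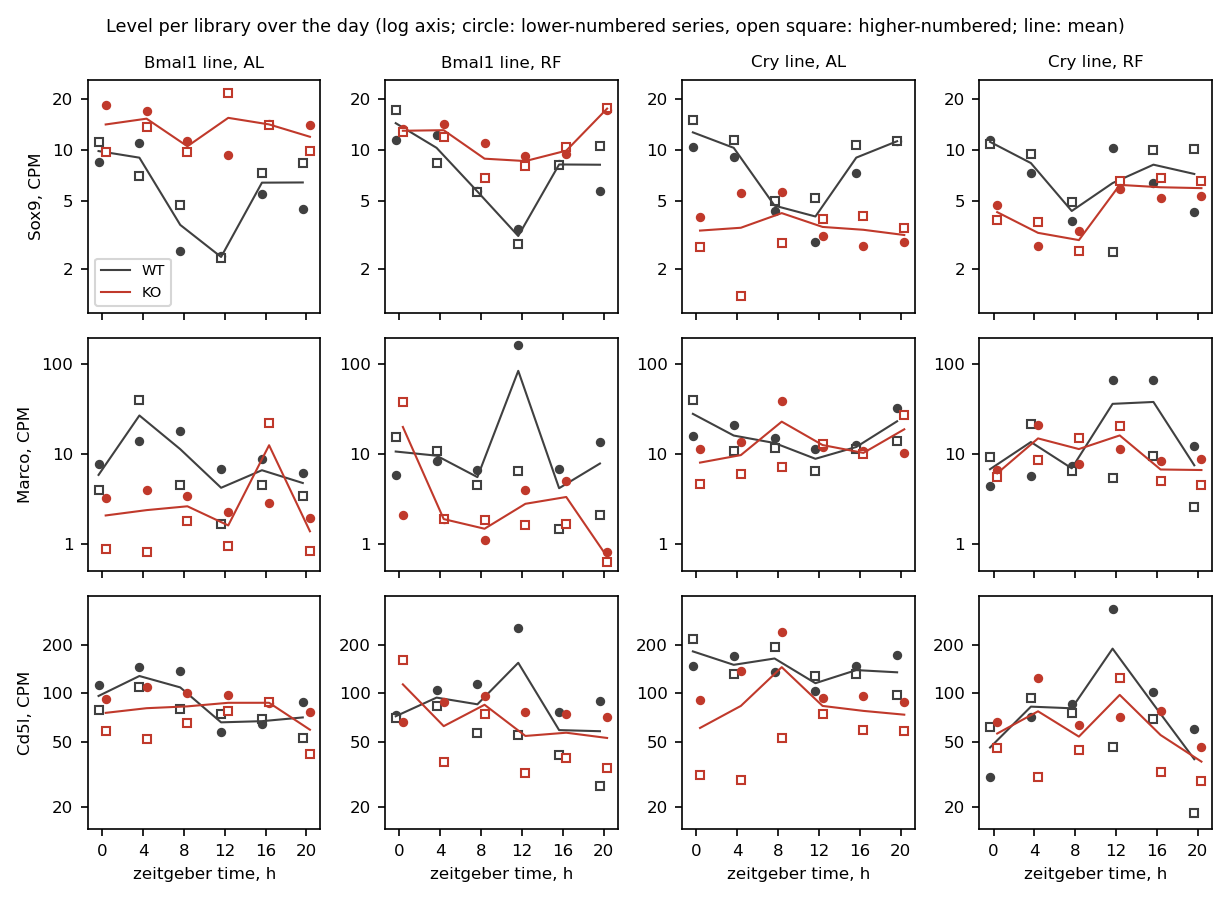
Sox9, Marco and Cd5l in CPM (log axis, rows) are plotted by zeitgeber time in h for each line and feeding regimen (columns), wild type in grey and knockout in red, with 1 point per library and lines through the mean of 2. The lowest wild-type Sox9 library is at ZT12 in all 4 columns, while single Marco and Cd5l libraries reach 160.0 and 330.6 CPM.

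Other rhythms were called in Cry groups. In Cry WT RF, Cd5l, Timd4, Cd163, C1qb and Spp1 were called, with ranges of 1.39 to 2.18 log2 and peaks between ZT10.7 and ZT11.9 (18.9% of all genes were rhythmic). The series 6 library at ZT12 had the highest level of all 96 libraries for 13 of 40 members, 9 of them Kupffer members. Cd5l stood there at 330.6 CPM, and the Kupffer sum was 1303 CPM against 1100 for the next library. Spp1 was at 228.0 CPM against 93.72 for the next highest. None of these 5 rhythms was called without the libraries of all groups that stood apart, where the series 6 library at ZT12 was the only one from Cry WT RF. In that run Cd163 had a range of 1.59 log2 and the other 4 had 0.39 to 1.02. Cd79a in Cry WT AL had a range of 2.19 with a peak at ZT4.0 (adjusted p = 0.0355, edgeR). Its range was 2.09 (0.068) without the libraries of all groups that stood apart, 2 of them in Cry WT AL. The 160.0 CPM Marco library of Bmal1 WT RF also held the second highest Kupffer sum. The highest lymphocyte sum, 11.81 CPM, was in series 5 of Cry KO RF at ZT4, the library with Ctrb1 at 251.6 CPM.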

How the data were processed

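RNA was extracted from mouse liver and sequenced from stranded mRNA libraries, per the labels' protocols. The deposited table holds whole-number counts per gene, not normalized; the submitters' processing notes name STAR 2.4.0i and the build mm10. Which program counted the reads, on which strand and with which gene models is not given in the sources used here. Libraries were grouped by genotype and feeding.

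edgeR 4.0.16 (R 4.3.3; TMM scaling, filterByExpr) was fitted to all 15772 genes kept, which hold 99.94% of the counts. Mean levels were compared over 48 group-by-time means with the quasi-likelihood test, series within each group, and rhythms with a 24 h cosine per group. P-values were adjusted by Benjamini-Hochberg over all genes. The code was tested on simulated data. Alternatives used DESeq2 1.42.0, limma 3.58.1, other scalings and filters, and left out series or libraries. A limma fit with the series as a random effect was added after the series differences were seen.

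The members and marker lists were chosen with earlier results of these data known. All members are named; given in full are the member with the highest CPM of each cell type and up to 3 called members per cell type and comparison, by adjusted p. Other markers are given as counts, named where the count is 5 or fewer or for the 2 smallest adjusted p of a list.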

Additional observations from a re-analysis of the deposited data

Results flagged for a closer look

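The effect of the knockout differed between the Cry and Bmal1 lines for 9 members under AL and 4 under RF, by a test of that difference with edgeR and Benjamini-Hochberg adjustment. Values are the log2 knockout effect in the Cry line minus that in the Bmal1 line. Under AL, Sox9 (−2.43), Cd163 (−1.47), Reln (−1.1), Stab2 (−0.96), Ptprb (−0.95) and Dcn (−0.64) were lower and Cd79a (1.37), Krt7 (1.1) and Epcam (0.6) higher in the Cry line. Under RF, Sox9 (−1.29) was lower and Ccl5 (1.73), Cd79a (1.25) and Des (0.84) higher. Without series 2 of Cry KO AL, the AL differences of Cd163, Stab2, Ptprb, Reln, Dcn, Epcam and Krt7 were not called, while those of Sox9 and Cd79a were. With the series as a random effect, those of Stab2, Ptprb, Reln, Dcn and Sox9 were called, and none under RF.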

How the results depend on the processing

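Counts are of members called, and the share of all genes called in each alternative run is not given. Leaving out each series in turn gave 2 to 4 for Bmal1 KO against WT under AL, 2 to 11 under RF, 1 to 29 for Cry under AL and 0 under RF; for feeding 0 to 1 in Bmal1 WT, 0 to 3 in Bmal1 KO, 0 to 6 in Cry WT and 0 to 20 in Cry KO; for the knockout effect by feeding 0 in the Bmal1 line and 0 to 26 in the Cry line; for the knockout effect between lines 3 to 26 under AL and 1 to 7 under RF; for the wild types 0 to 2 under AL and 0 under RF. With no filter the 14 counts, in that order, were 12, 18, 29, 3, 9, 4, 17, 14, 4, 9, 17, 10, 18 and 4. With the series as a random effect, chosen after seeing the data, Bmal1 AL had 1, Cry AL 5 and the lines' difference under AL 5, and Bmal1 RF, Cry RF, feeding in Bmal1 WT, Cry WT and Cry KO, the lines' difference under RF and the wild types under AL had 0. With the compared groups alone, Bmal1 AL had 11, Cry AL 5, Cry RF 0, feeding 2 in Bmal1 WT, 7 in Cry WT and 0 in Cry KO, and the wild types under AL 19. With library totals, Bmal1 AL had 5, feeding 0 in Cry WT and Cry KO, and the wild types under AL 6. DESeq2 gave 2 for feeding in Cry WT, 1 for the Cry knockout effect by feeding and 1 for the wild types under RF; limma-voom gave 0 for Cry RF and 8 and 0 for feeding in Cry WT and Cry KO; RLE factors and a minimum mean of 1 CPM each gave 1 for feeding in Cry KO. Without the libraries that stood apart, Bmal1 RF had 3, Cry RF 0, feeding 10 in Cry WT and 1 in Cry KO, the lines' difference under RF 2 and the wild types under AL 5. Without the 3 shallowest, Cry AL had 8 and feeding in Bmal1 WT 2. The cause was not tested.

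Series differences moved with library totals (6 in Bmal1 WT RF, 25 in Bmal1 KO RF, 12 in Cry KO RF), without the libraries that stood apart (5 in Bmal1 KO AL, 8 in Bmal1 WT RF, 2 in Cry KO RF) and with a minimum mean of 1 CPM (3 in Bmal1 WT RF). Rhythm counts with a series left out were 0 in Bmal1 WT AL, 0 to 1 in Bmal1 WT RF, Bmal1 KO RF and Cry WT AL, 0 to 5 in Cry WT RF and 0 elsewhere; without the libraries that stood apart Cry WT AL had 0 and Cry WT RF 1. Among the members called in each comparison of mean level, the sign turned for 6 log2 fold changes with 1 series left out. Nkg7 in Bmal1 RF ran from −2.309 to 0.02 (without series 2 of the wild type). In Cry AL, Stab1 ran from −2.091 to 0.087, Ptprb from −2.475 to 0.082, Dnase1l3 from −1.847 to 0.037, Ehd3 from −1.446 to 0.006 and Krt7 from −0.106 to 1.281, each turned without series 2 of the knockout.

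The labels do not say whether same-numbered series of the Bmal1 line are paired. Correlations of same-numbered deviations ran from −0.073 to 0.223, with 5 of 12 over 0.1, and do not settle this. A replicate block gave 5 members for Bmal1 AL and 6 for Bmal1 RF, and rhythm counts of 2 in Bmal1 KO RF and 9 in Cry WT RF. Marco had the largest SE of the members in the series differences of each group (0.607 to 0.839), and the lymphocyte members had the lowest median level per kb.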
